A study of Mus musculus with 6 samples.

Results

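The NKR-P1 receptor genes Klrb1a, Klrb1b, Klrb1c and Klrb1f, the ligand gene Clec2d and the receptor gene Klrg1 were examined for the promoter mark H3K4me3 and for Tcf1 peaks in cultured mouse natural killer (NK) cells. These 6 genes were chosen by name and matched by Entrez identifier among 21685 protein-coding genes. The cells came from spleens of Tcf7+/+ mice of strain B6 (WT) and of Tcf7-/- mice of strain B6.129 Tcf7Tm1Cle (KO), and both were grown for 5 days with IL-2 at 500 ng/mL. IL-2 is a cytokine that activates and expands NK cells, and Tcf7 encodes the DNA-binding protein Tcf1, which the KO lacks. Chromatin immunoprecipitation with sequencing was done once per genotype with an antibody against Tcf1 and once with an antibody against H3K4me3, so each group held 1 library and no difference below has a replicate check. Strain differs together with genotype, and their effects cannot be told apart here. The age of the mice and the pooling of animals are not given in the sources used here.

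NKR-P1 proteins are C-type lectin-like receptors on the surface of NK cells. Their genes are interleaved in the NK gene complex on chromosome 6 with the Clec2 genes, whose products (Clr proteins) serve as their ligands. NKR-P1C is the NK1.1 antigen used to identify NK cells in B6 mice, and it activates the cell through the adaptor FcRgamma (encoded by Fcer1g). NKR-P1B inhibits the cell when it binds Clr-b, the widely expressed product of Clec2d, through the phosphatase SHP-1 (encoded by Ptpn6). NKR-P1F binds other Clr proteins, among them Clr-g (encoded by Clec2i). KLRG1 is an inhibitory receptor of mature NK cells and effector T cells that binds cadherins. H3K4me3 marks the promoters of active genes and does not measure RNA or protein.

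The promoters of the 4 NKR-P1 members are shown because those of Klrb1a and Klrb1c are nearly alike. Of these 2 genes, Klrb1c was marked and Klrb1a was not. Each run below holds the 250 bases before the transcription start site (TSS), read 5′ to 3′ on the gene's strand, from RefSeq (GRCm38.p6). In Klrb1a and Klrb1c, capitals mark the longest run the windows of these 2 genes share, of 41 bases. In Klrb1b and Klrb1f, capitals mark a stretch of 13 bases that the 4 NKR-P1 members hold near the TSS. In Klrb1c it lies after the TSS, outside the run shown.
Klrb1a (chr6:128622935-128623184, minus strand): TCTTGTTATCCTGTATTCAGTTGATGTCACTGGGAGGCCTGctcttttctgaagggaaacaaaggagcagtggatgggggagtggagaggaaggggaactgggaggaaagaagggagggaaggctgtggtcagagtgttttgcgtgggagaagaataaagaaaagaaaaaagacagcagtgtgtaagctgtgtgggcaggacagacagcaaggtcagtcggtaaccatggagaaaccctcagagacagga
Klrb1c (chr6:128788642-128788891, minus strand): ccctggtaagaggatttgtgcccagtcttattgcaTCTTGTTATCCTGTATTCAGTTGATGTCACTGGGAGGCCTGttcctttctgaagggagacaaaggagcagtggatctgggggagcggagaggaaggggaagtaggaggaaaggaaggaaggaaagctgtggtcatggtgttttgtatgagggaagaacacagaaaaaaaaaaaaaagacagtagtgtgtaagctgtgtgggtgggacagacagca
Klrb1b (chr6:128826316-128826565, minus strand): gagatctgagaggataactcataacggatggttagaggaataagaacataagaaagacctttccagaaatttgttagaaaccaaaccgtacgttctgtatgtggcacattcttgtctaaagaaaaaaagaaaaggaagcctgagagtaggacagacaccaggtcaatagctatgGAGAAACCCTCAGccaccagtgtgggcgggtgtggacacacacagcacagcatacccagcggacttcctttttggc
Klrb1f (chr6:129045651-129045900, plus strand): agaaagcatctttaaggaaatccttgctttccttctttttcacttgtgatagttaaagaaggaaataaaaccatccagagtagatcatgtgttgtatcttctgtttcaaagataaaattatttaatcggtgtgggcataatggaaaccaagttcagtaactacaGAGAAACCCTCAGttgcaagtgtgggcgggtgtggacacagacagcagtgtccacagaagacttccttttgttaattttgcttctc

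Over the 300 bases from 250 before the TSS to 50 after it, Klrb1a and Klrb1c were 89.1% identical across 265 aligned columns, and Klrb1b and Klrb1f were 60.3% identical across 295. The other pairs of NKR-P1 genes were 49.2% to 58.1% identical over the columns that aligned. The stretch GAGAAACCCTCAG began 21 bases before the TSS of Klrb1a, 76 before that of Klrb1b and 86 before that of Klrb1f, but 19 bases after that of Klrb1c. Among one window for each of 27025 genes, it stood on the gene's strand in these 4 alone, from which it was chosen. The window of Klrb1, a further NKR-P1 gene of the cluster, thus did not hold it. The 4 windows of 250 bases held 1 to 5 CpG dinucleotides, against a median of 6 over all genes. The table matched 5 of the 6 members and held no entry for Klrg1.

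Klrb1a, which encodes NKR-P1A, carried no H3K4me3 peak in WT or KO. The gene lies at 128609227 to 128622934 on chromosome 6 (GRCm38/mm10, minus strand). No H3K4me3 peak of either library came within 50 kb of it, so the gene was unmarked throughout its neighbourhood. A peak list holds called peaks only, so a lower signal at this promoter cannot be read from it. The longest exact match between its window and that of the marked Klrb1c was shorter than the 100-base reads. That match began at the upstream edge of the Klrb1a window, so its full length cannot be read from the windows. Matches outside the windows were not examined. Whether reads of this length can be told apart between Klrb1a and Klrb1c was thus not tested. How reads that match several places were treated is not given in the sources used here, and the comparison of these near-copies is uncertain to that extent.

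Klrb1c, the NK1.1 gene, carried a strong and similar mark in both genotypes. The gene lies at 128778485 to 128788641 (minus strand), 155.6 kb beyond the end of Klrb1a. Its TSS was covered by a peak of 977 tags over 4687 bp in WT and by a peak of 1208 tags over 3925 bp in KO. Tags are reads counted in a peak, not scaled to depth. The typical gene marked in both libraries held 1.20-fold more tags in KO (median log2 ratio 0.27). Ratios below are log2 of KO over WT with this median subtracted. Ratios per kb of peak have their own median subtracted (0.32). The ratio of Klrb1c was 0.04 (95% counting interval -0.08 to 0.16), so the libraries did not differ beyond counting error. Such intervals cover counting error only, since each group held 1 library. Copies made by PCR cannot be told apart in a peak list. Per kb of peak the ratio was 0.24, and the KO peak was 16.3% narrower.

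Klrb1b, the gene of the inhibitory receptor, carried less of the mark, and spread it over a similar width. The gene lies at 128813706 to 128826315 (minus strand). Its peak held 324 tags over 4208 bp in WT and 427 tags over 4055 bp in KO, and the ratio was 0.13 (interval -0.08 to 0.35), and per kb of peak it was also 0.13. The edges of the peak lay within 85 bp of each other in the 2 libraries.

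Klrb1f, the gene of the receptor for Clr-g, was the NKR-P1 gene with the higher mark in KO. The gene lies at 129045837 to 129059724 (plus strand). Its peak held 363 tags over 4918 bp in WT and 646 tags over 5091 bp in KO. These are 1.78 times as many tags in KO, a ratio of 0.57 after centring (interval 0.38 to 0.76). That interval did not overlap those of Klrb1b, Klrb1c or Clec2d, although its gap to that of Klrb1b was small. The ratio was 0.46 per kb of peak, and the width of the peak differed by 3.52%. Of 10139 genes marked in both libraries, 85 (0.838%) had a ratio as high or higher. The SD of the ratios over these genes was 0.29.

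Clec2d, the gene of the ligand Clr-b, held the most tags and the widest peak of the 6 genes in both libraries. The gene lies at 129180615 to 129186535 (plus strand) and was covered nearly end to end. Its peak held 1320 tags over 6621 bp in WT and 1516 tags over 6007 bp in KO, and the ratio was -0.07 (interval -0.17 to 0.04), an interval that includes 0, and it was 0.02 per kb of peak. The genes of the receptor NKR-P1B and of its ligand Clr-b were thus each marked in both genotypes, as were 46.8% of all genes. Whether the same cells carry both marks cannot be told from libraries of many cells.

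**Figure D1:**
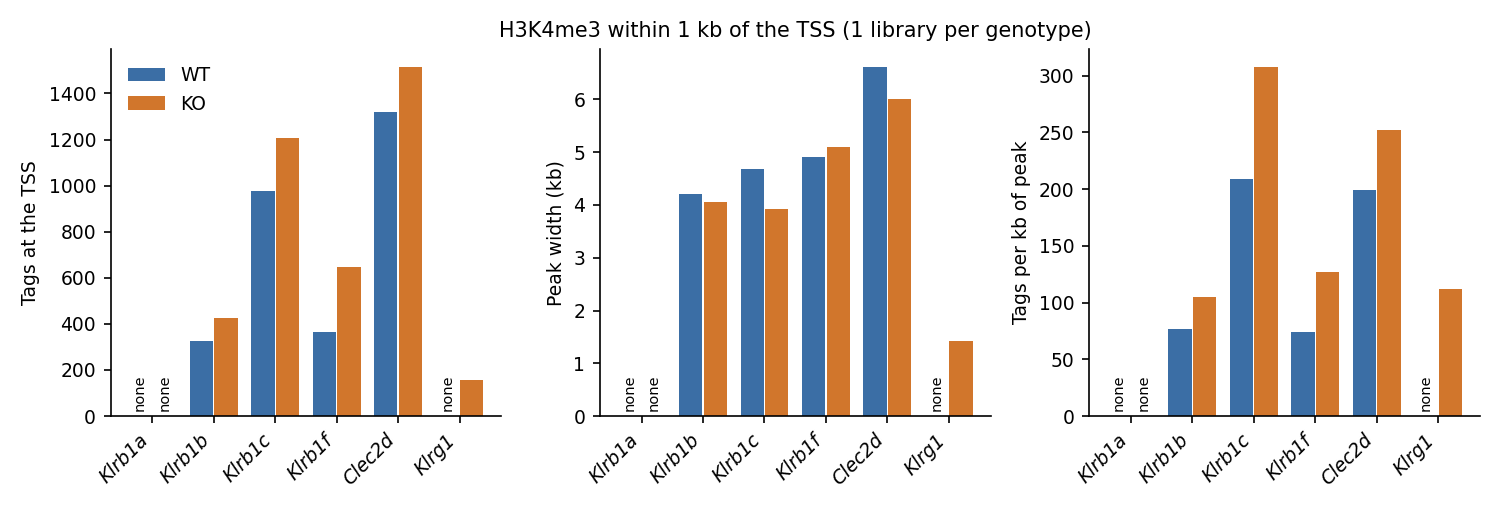
H3K4me3 at the TSS of the 6 genes, as tags (left), peak width in kb (middle) and tags per kb of peak (right), with WT bars in blue, KO bars in orange and 1 library per bar. Clec2d and Klrb1c hold the tallest bars, Klrb1a has none, and Klrg1 has a bar in KO alone (158 tags).

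**Figure D2:**
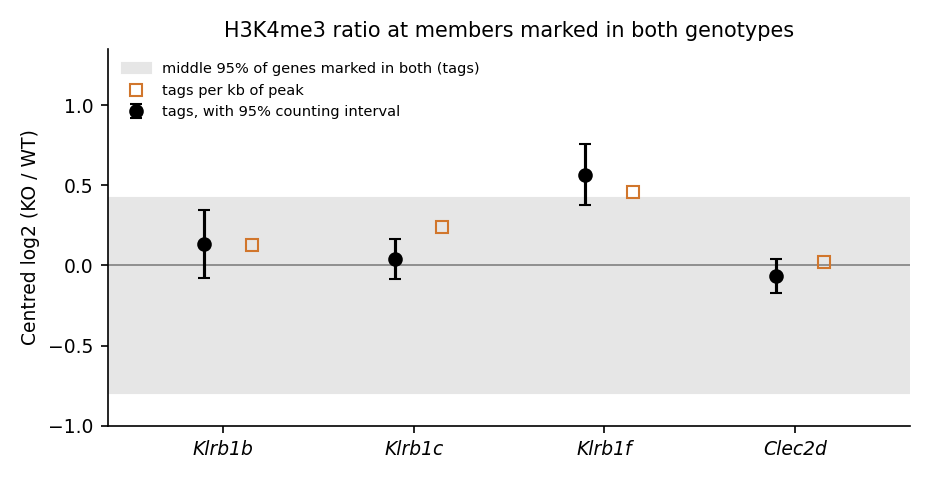
Centred log2 ratio (KO over WT) for the 4 genes marked in both libraries. Black points are tags with 95% counting intervals, open squares are tags per kb of peak, and the grey band spans the middle 95% of all genes marked in both; Klrb1f (0.57) lies above the band and the other 3 lie near 0.

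Klrg1 was marked in KO alone. The gene lies at 122270596 to 122282833 (minus strand), 6.33 Mb from Klrb1a. No H3K4me3 peak was called within 1 kb of its TSS in WT, whereas a KO peak of 158 tags over 1415 bp covered the TSS (score 305.5, FDR 0.22%). The score is the peak caller's p-value as -10 log10, and the FDR is its false discovery rate. A second KO peak, with 48 tags and an FDR of 22.7%, began 1.18 kb inside the gene. At the median ratio of the libraries, 158 tags in KO correspond to 131.5 tags in WT. The WT list held 3522 peaks (25.6%) of any width with fewer tags than that, at other places. Whether a peak of this size would have been called at Klrg1 in WT was not tested. By tags Klrg1 ranked 1 among the 30 genes marked in KO alone, whose median was 48.5 tags. Against genes marked in both libraries its KO peak was small, at percentile 5.11 by tags and 6.68 by width.

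The neighbourhood upstream of Klrg1 was marked in both libraries. A wide region 9.86 kb upstream of its TSS, over the transcribed pseudogene Gm6637, held 1117 tags in WT and 1380 in KO (ratio 0.04, interval -0.08 to 0.15). The next protein-coding gene, M6pr, held 562 tags in WT and 802 in KO (0.25, interval 0.09 to 0.41), but -0.02 per kb of peak. WT thus lacked a called peak at the promoter of Klrg1 and at the small KO peak inside the gene, but not at these upstream regions. No fold is given for Klrg1, since a promoter with no called peak has no measured level.

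In all, 4 of the 6 genes were marked in WT and 5 in KO, against 52.5% and 46.9% of all protein-coding genes, and 4 were marked in both, against 46.8%. Marks in KO alone were found at 0.138% of all genes and in WT alone at 5.76%, and the 6 genes gave 1 (Klrg1) and 0. None of the 4 ratios lay beyond 1 in either direction. Over all genes with at least 100 tags in a library, 0.0597% lay above 1 and 1.17% below -1. The counting interval lay above 0 for 1 of the 4 genes and below 0 for none, against 19.0% and 21.7% of genes marked in both. With 6 members these counts do not set the genes apart from the background.

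The mark was wide at 4 of the 5 marked members, and 2 of these wide peaks were sparse. The peaks of Klrb1b, Klrb1c, Klrb1f and Clec2d were wide, at percentiles 91.8, 94.4, 95.3 and 98.5 of width among genes marked in both in WT, and 93.2, 92.2, 97.3 and 98.6 in KO. Klrb1b and Klrb1f were sparse as well. They held 77.0 and 73.8 tags per kb in WT (percentiles 2.78 and 2.31) and 105.3 and 126.9 in KO (percentiles 5.74 and 9.56). The narrow KO peak of Klrg1 was sparse too, at 111.7 tags per kb (percentile 7.03). The density of Klrb1c was ordinary, with 208.4 tags per kb in WT and 307.8 in KO (percentiles 40.2 and 52.1). That of Clec2d was 199.4 and 252.4 (percentiles 36.7 and 36.2). In WT, 9 of the 10139 genes were at least as wide and at most as dense as Klrb1b. This description was chosen after the values were seen. Klrb1b and Klrb1f were among them. So was Klrd1, the gene of CD94 in the same complex, with 5185 bp at 75.8 tags per kb. Klre1 of that complex was wide and nearly as sparse in WT, with 7674 bp at 85.9 tags per kb. In WT the wide and sparse shape was thus not particular to the NKR-P1 genes. In KO, 8 genes were at least as wide and at most as dense as Klrb1b. The KO peak of Klrd1 was narrower, with 2250 bp at 104.9 tags per kb, and Klre1 held 4690 bp at 109.2.

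**Figure D3:**
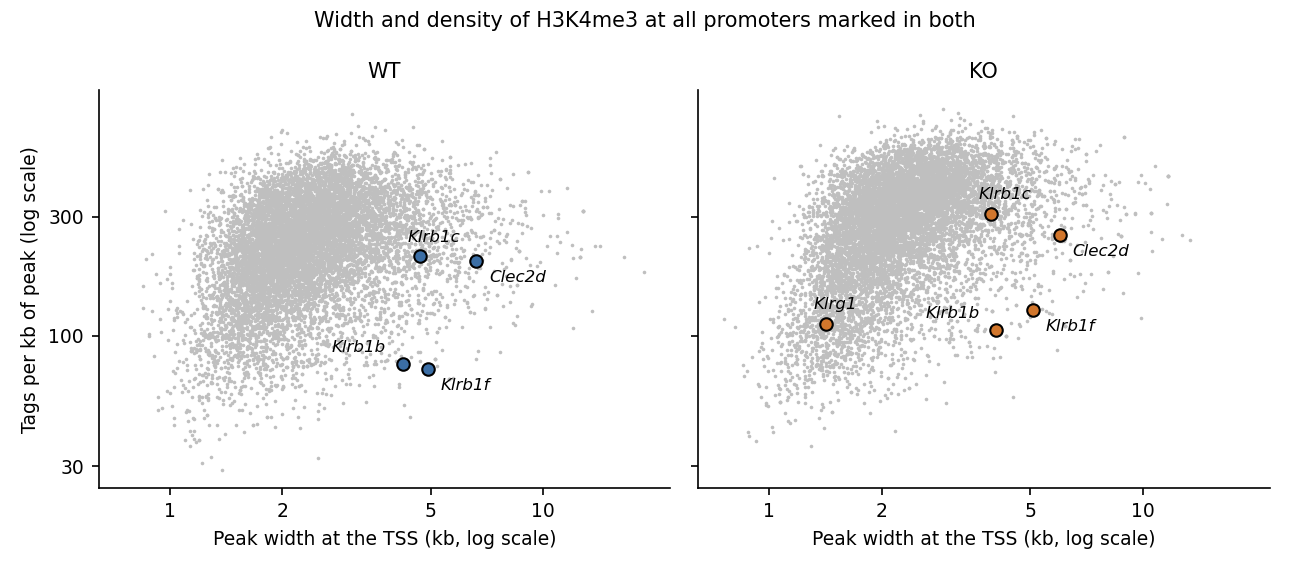
Width of H3K4me3 peaks at the TSS (kb, log scale) against tags per kb of peak (log scale) for each gene marked in both libraries (grey), in WT (left) and KO (right), with the members as coloured points. Klrb1b and Klrb1f lie at the lower right edge in both panels, wide and sparse, and Klrg1 lies at the lower left of the KO panel.

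The highest point of the mark lay inside the gene, and at nearly the same base in both genotypes. The summit of Klrb1f was 3152 bp downstream of the TSS in WT and 3131 bp in KO, 21 bp apart. Those of Klrb1b were at 1400 and 1318 bp, and those of Klrb1c at 595 and 585 bp. The distances for Klrb1c are from the RefSeq TSS at 128788641. Its Ensembl feature begins further upstream, at 128789215, and from there the summits lie deeper in the gene. In Clec2d they were at 592 bp (WT) and 403 bp (KO), a gap of 189 bp that was the largest of the 4. Over all genes with a lone peak at the TSS the median summit was 247 bp downstream in WT and 245 bp in KO. A summit as far downstream as that of Klrb1f was found at 13 of 11093 such genes in WT (0.117%) and at 11 of 9939 in KO (0.111%). A summit over 1 kb downstream, as at Klrb1b, was found at 2.70% and 2.19%. The KO summit of Klrg1 was at 346 bp.

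**Figure D4:**
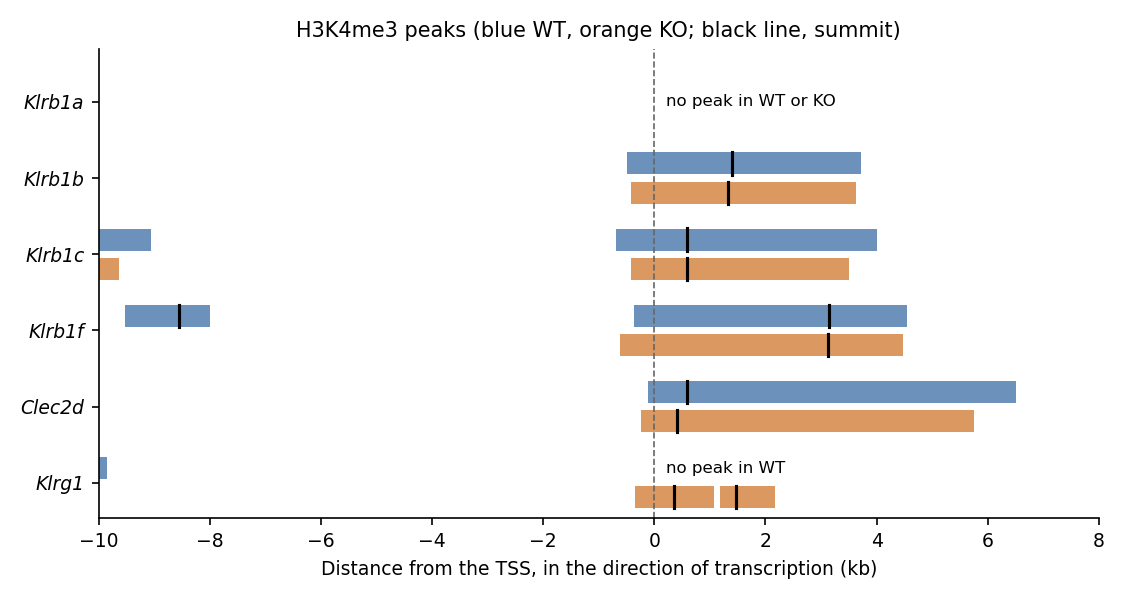
H3K4me3 peaks from 10 kb upstream to 8 kb downstream of each TSS (distance in kb, in the direction of transcription), WT in blue, KO in orange, with the summit as a black line. Peaks reach far into Klrb1b, Klrb1c, Klrb1f and Clec2d, the summits of the 2 libraries fall close together, and those of Klrb1f lie over 3 kb inside the gene.

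Around the members, 9 further H3K4me3 regions lay within 50 kb of a gene but away from its TSS, and 7 of them were marked in both libraries. Besides those at Gm6637 and M6pr, 4 surrounded Klrb1c and Klrb1b. A region starting 9.07 kb upstream of the TSS of Klrb1c, overlapping the long noncoding RNA gene Gm34755, held 358 tags in WT and 423 in KO (ratio -0.02, interval -0.23 to 0.18). A region inside no annotated gene, 27.1 kb downstream of that TSS, held 322 and 446 tags (0.20, interval -0.01 to 0.42). Upstream of Klrb1b, regions 11.5 and 15.7 kb from the TSS held 282 and 491 tags in WT and 370 and 601 in KO, with ratios of 0.13 and 0.03 and intervals that include 0. Neither Klrb1b nor Klrb1c therefore stood alone. By tags the 4 ratios around them ran from -0.02 to 0.20, with intervals that include 0, as at their promoters. Per kb of peak they ran from -0.03 to 0.28, against 0.13 at Klrb1b and 0.24 at Klrb1c. Beyond Clec2d, the noncoding RNA gene 2310001H17Rik held 460 and 574 tags (0.05, but 0.36 per kb of peak).

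The remaining 2 regions were called in 1 library each. The small second peak inside Klrg1 was called in KO. A weak peak of 52 tags (score 62.3, FDR 0.71%) 8.0 kb upstream of the TSS of Klrb1f was called in WT. The promoter of Klrb1f itself held more tags in KO.

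From Klrb1a to Cd69, a span of 666.1 kb, 13 protein-coding genes were measured. The mark was present at 7 in both libraries, against 46.8% of all genes, and at 6 in neither. Unmarked were Klrb1a, a further NKR-P1 gene listed as Klrb1, and the ligand family genes Clec2e, Clec2f, Clec2g and Clec2h. Marked were the 4 members above, Clec2i and BC035044, which share a peak, and the activation marker gene Cd69. Marked and unmarked genes were thus interspersed along the cluster, and the pattern was the same in WT and KO.

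Of the marked neighbours, Clec2i encodes Clr-g, a ligand of NKR-P1F. Its shared peak held 735 tags in WT and 1200 in KO (ratio 0.44, interval 0.31 to 0.58, and 0.26 per kb of peak). The 2 intervals above 0 within this span thus fell at Klrb1f and at the promoter of Clec2i and BC035044. The TSSs of Klrb1f and Clec2i lie 158.3 kb apart. Over all genes marked in both libraries, 19.0% had an interval above 0, and whether the span differs from that share was not tested. Cd69 held 432 and 553 tags (0.09, interval -0.09 to 0.28). Clec2l, outside the span, was marked in WT alone with 43 tags, and Clec2j is annotated as a pseudogene and was not measured.

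**Figure D5:**
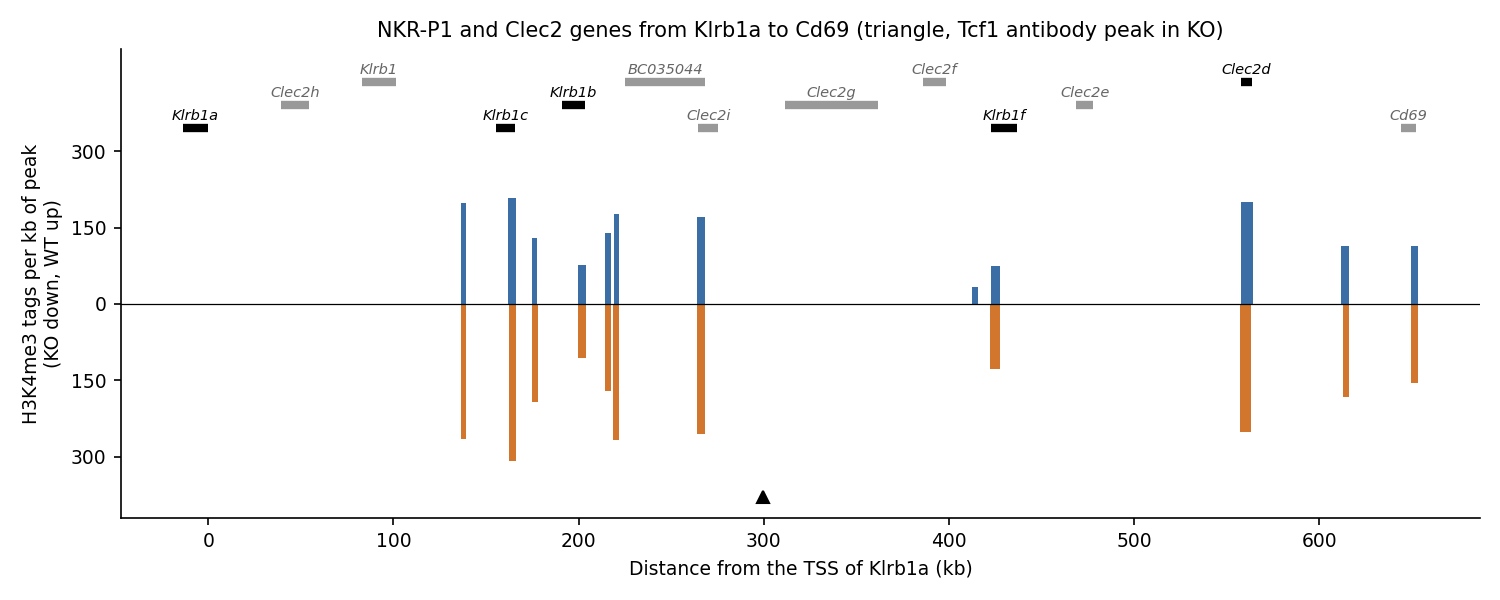
Map of the cluster from Klrb1a to Cd69, with distance from the TSS of Klrb1a in kb on the x axis and H3K4me3 tags per kb of peak on the y axis (WT up in blue, KO down in orange); genes are bars at the top, with the members in black. Every peak of the span but the weak one near 413 kb has a counterpart in the other library, and the lone Tcf1 antibody peak (triangle) was called in KO.

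Tcf1 peaks were absent from the surroundings of all 6 genes. None had a Tcf1 peak within 50 kb in WT, against 4.39% of all genes, and none in KO, against 20.6%. The KO cells lack the target of the antibody, so their list shows the background. A count of 0 of 6 lies near the share of 4.39% in WT and is no result about these genes. The nearest WT peak to the NKR-P1 cluster lay 134.5 kb from Klrb1a, with 56 tags, a score of 134.5 and an FDR of 7.58%, and it was also the nearest to the other 3 NKR-P1 genes and to Clec2d. The nearest to Klrg1 lay 1352 kb away, with 22 tags. The nearest KO peak in the cluster lay 96.0 kb from Klrb1b, with 16 tags and an FDR of 80.4%.

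The promoter windows were searched for short motifs on both strands. The TCF/LEF letters CTTTGAA or CTTTGAT or CTTTGTA or CTTTGTT, which Tcf1 and its relatives can bind, were found 193 bases before the TSS of Klrb1a and 146 bases before that of Klrb1f. They were not in the windows of Klrb1b, Klrb1c and Clec2d, and 14.9% of all promoters of this length held a match. The ETS letters AGGAAG were found in all 4 NKR-P1 windows, with 3 matches in Klrb1c, and in 29.2% of all promoters. The RUNX letters TGTGGT or TGCGGT were found in Klrb1a and Klrb1c and in 18.7% of all promoters. The T-box letters AGGTGT were found in none of the 5 windows and in 12.0% of all promoters. The motifs in Klrb1a lay in a promoter without the mark, and these matches describe letters, not binding.

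Genes that carry the receptors' signals were marked in both libraries in 14 of 14 cases, against 46.8% of all genes. The adaptor genes Tyrobp and Hcst share 1 region and so give the same values. The median ratio was 0.07, the value of that shared region, and 0.12 per kb of peak. The counting interval lay above 0 for 5 genes and below it for 5, against 19.0% and 21.7% of genes marked in both. Fcer1g, the adaptor gene of NKR-P1C, held 1147 tags in WT and 1618 in KO (0.23, interval 0.12 to 0.34). Ptpn6, the SHP-1 gene, held 451 and 473 tags (-0.20, interval -0.39 to -0.01), but 0.40 per kb of peak, so its direction depended on the measure. By tags the lowest ratio belonged to Zap70, a kinase downstream of such adaptors, with 568 and 210 tags (-1.70). Per kb of peak it was -0.50, and Lat, which encodes a membrane adaptor, was lower (-0.72, against -0.48 by tags). Ptpn6 was named after its values were seen, for its role with NKR-P1B.

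Of the cadherin genes that encode ligands of KLRG1, Cdh1 was marked in WT alone (266 tags), as were 5.76% of all genes, and Cdh2 and Cdh4 were marked in neither library.

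The CD94 and NKG2 receptor genes of the same complex were examined beside the members. Both libraries marked 5 of these 8 genes, against 46.8% of all genes. Their median ratio was -0.74 by tags and -0.50 per kb of peak. By tags all 5 counting intervals lay below 0, against 21.7% of genes marked in both. Klrc1, the gene of NKG2A (211 tags), and Klrc3 (62) were marked in WT alone, as were 5.76% of all genes. Klrd1, the gene of CD94, held 393 and 236 tags (-1.001), but 0.15 per kb of peak. Klre1, a receptor gene, held 659 and 512 tags (-0.63), but 0.03 per kb of peak. By tags the ratios of the 4 members marked in both (-0.07 to 0.57) lay above all 5. Per kb of peak the groups overlapped, since Klrd1 lay above Clec2d (0.02) and Klrb1b (0.13), and Klre1 above Clec2d. The difference between the gene groups was not tested, since each genotype had 1 library.

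Defining NK cell genes were marked in both libraries in 10 of 10 cases, against 46.8% of all genes. They held 13646 tags in WT and 16719 in KO before scaling, and their median centred ratio was -0.02. The counting interval lay above 0 for 3 of them and below it for 4, against 19.0% and 21.7% of genes marked in both. Of 9 T cell marker genes, Cd3e (64 tags) and Cd3d (35) were marked in WT and none in KO. None of 7 B cell marker genes had a peak in WT or KO. Of 8 myeloid markers, Cd14 (95 tags) and Cebpa (113) were marked in WT and none in KO. Of 6 erythroid markers, Klf1 was marked in both and Epor (56 tags) in WT. Over all genes, 52.5% were marked in WT, 46.9% in KO and 5.76% in WT alone. The part of other cells in the values above was not tested.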

How the data were processed

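Per the submitters' processing notes, Bowtie2 2.1.0 and MACS 1.4 were used. They name mm10, GRCm38 and also GRCh37 without saying for which step. Positions were read as GRCm38/mm10. Peak calling settings and the control track are not given in the sources used here, and the 2 input libraries of the 6 were not analysed here. Per the file headers, the authors deposited for each peak a count of tags not scaled to depth, a score of 10 times the negative log10 p-value, a fold enrichment (a ratio over background) and an FDR in percent. The H3K4me3 lists held 13771 peaks (6635272 tags) in WT and 11074 peaks (7507763 tags) in KO, and the Tcf1 lists 866 and 5139. Sequencing depth is unknown here.

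Rows were reduced to distinct peaks, and starts were converted to count from 1. TSSs came from RefSeq (GRCm38.p6) for 17491 of 21883 protein-coding genes and from Ensembl features in the lists for 2510, Klrg1 among them. A further 1684 had no TSS and no H3K4me3 peak within 2.5 kb, and 198 were left out, so shares of marked genes are approximate. H3K4me3 peaks of both libraries overlapping by at least 1 bp were joined, and tags of regions within 1 kb of a TSS were summed per library. The median log2 ratio over genes with peaks in both libraries was subtracted from each ratio, separately for tags and for tags per kb. Ratios of tags have exact (Clopper-Pearson) 95% intervals given the summed tags. A ratio beyond 1 with at least 100 tags counted as called. Tcf1 distances were taken from the gene. The method was tested on simulated counts with counting error only, the error that the intervals assume. That test cannot cover differing peak edges, missed peaks or spread between cultures. The 6 members, the lists and the alternatives were chosen with earlier results of these data known, and the motifs after the promoters were seen. All members were named. From the other lists, Klrd1, Fcer1g, Cd69 and genes marked in 1 library or called were named, with at most 4 per list, and other names are given by their place or role. The analysis used scipy 1.17.1, pandas 2.3.3, numpy 2.4.6, biopython 1.88 and matplotlib 3.10.9 under Python 3.11.15.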

Additional observations from a re-analysis of the deposited data

How the results depend on the processing

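The counts of marked members (4 in WT and 5 in KO) and of members called or marked in 1 library (1) were the same with peaks as called, TSS windows of 0 and 2.5 kb, lists of equal length and scores of at least 100. The called count was also the same per kb of peak and with scaling by all tags in peaks. Of 28 recomputed ratios of the 4 members marked in both, 27 stayed inside their counting interval. The exception was Klrb1c per kb of peak (0.24). That of Clec2d was 0.02 with scaling by all tags. The count of members near a WT Tcf1 peak was 0 at 10 and 100 kb, and that near a KO peak was 0 at 10 kb and 1 at 100 kb. No paired analysis was possible because the labels give no replicate numbers and each group held 1 library. Spread between cultures or mice cannot be estimated, and a promoter without a called peak has no measured level.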

Other observations

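KLRG1 marks mature NK cells, and other genes that change as NK cells mature were examined with it. Both libraries marked 10 of these 14 genes, against 46.8% of all genes, and neither marked Itgam, S1pr5, Cx3cr1 or Il7r. The median ratio was 0.0049, and the counting interval lay above 0 for 2 genes and below it for 3, against 19.0% and 21.7% of genes marked in both. Cd27, whose product is lost as NK cells mature, held 213 tags in WT and 118 in KO (-1.12, interval -1.45 to -0.79), and -0.61 per kb of peak. The genes that follow were named after their values were seen. Kit, a receptor gene of early NK cells, held 458 and 360 tags (-0.61). Of the genes of transcription factors that act in maturation, Zeb2 held 1678 and 2334 tags (0.21) and Tbx21 2092 and 2840 (0.18), with intervals above 0. Per kb of peak Zeb2 was at 0.04 and Tbx21 at 0.16. Prdm1 held 964 and 966 tags (-0.26, interval -0.39 to -0.13), but 0.15 per kb of peak, so its direction depended on the measure. Eomes held 2434 and 2930 tags (0.0022, interval -0.08 to 0.08), and Gata3 1379 and 1755 (0.08, interval -0.02 to 0.19). The remaining genes marked in both were Spn (0.0077), Ly6c2 (0.04) and Cxcr3 (-0.25), each with an interval that includes 0.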
